A study of Mus musculus with 36 samples.

Results

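Interferon-stimulated genes were described in the livers of mice with and without the hepatocyte insulin receptor. The set held 41 genes listed by symbol: sensors and transcription factors of the interferon response, antiviral effectors, interferon-inducible GTPases and chemokines. Probes flagged well above background on 6 or more of the 36 arrays were kept, and the brightest kept probe stood for its gene. The rule kept 40 of the 41 genes among 22919 genes in all. Oas3 was left out because its probe was well above background on only 3 arrays, and Oas1g entered with 6 arrays, so its values lie close to background. The other 39 genes were measured on all 36 arrays.

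Total liver RNA of 36 male C57BL/6J mice was hybridised, 1 array per RNA sample, with 6 samples in each of 6 groups. The IRLKO groups had lost the insulin receptor in hepatocytes through a tamoxifen-inducible knockout (IRhep-/-), made with loxP sites around exon 4 of Insr and the TTR-CreTam transgene, a Cre driven by the transthyretin promoter. The IRLWT groups were the control genotype (IRhep+/+). All mice were 11 weeks old and ate chow ad libitum, and livers were taken at zeitgeber time (ZT) 8, 12 or 16, hours after lights on, with lights off at ZT12. The labels used here do not give when tamoxifen was given or whether control mice carried the Cre. They also name no shared animal, litter or day behind a replicate number, so p-values measure the spread between these samples. Since whole liver was measured, fewer cells of a type and less RNA per cell cannot be told apart.

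Interferons are secreted proteins that bind paired receptors on the cell surface. Type I and type III interferons activate a complex that contains Stat2 and Irf9 and binds the interferon-stimulated response element (ISRE), and interferon gamma acts through the gamma-activated site (GAS). The genes so induced detect viral RNA, degrade or sequester it, mark proteins with Isg15, disrupt pathogen vacuoles and attract lymphocytes, and hepatocytes and liver macrophages both express many of them.

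Levels are given as log2 of the processed signal minus the log2 of the 75th percentile of that array, so that 0 is the array's 75th percentile and a difference of 1 is a 2-fold difference. Levels of different probes are not compared. The 75th percentile ranged from 311 to 525 intensity units and the share of probes well above background from 53.7% to 63.1% over the arrays, and no spot of these genes was saturated. The number of arrays limits the precision of each mean. Insr, the targeted gene, was lower in IRLKO by 1.77, 1.88 and 1.65 on the log2 scale at ZT8, ZT12 and ZT16, with no overlap between genotypes at any time.

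Before the comparisons, 2 knockout arrays have to be described, because nearly all interferon-stimulated genes were high on them. On IRLKO ZT8 replicate 3, 38 of the 40 genes were above the other 5 arrays of the group, and on IRLKO ZT12 replicate 6, 40 of 40 were. Over all 22919 genes, the corresponding shares were 21.7% and 20%, and these arrays were the lowest of their group for 35.6% and 26.6% of all genes, the highest such shares in their groups. The mean level of the 40 genes was 2.68 on the first array, against 0.80 to 1.18 on the other 5 of its group. It was 2.29 on the second array, against 0.80 to 1.04. Across the remaining 34 arrays of the study that mean lay between 0.68 and 1.37. The median gene stood 1.62 log2 above the median of the other 5 arrays on the first and 1.39 on the second, and 26 of 40 genes were at least 2-fold above it on each.

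The size of this rise differed between the roles of the genes. The 8 interferon-inducible GTPases, which attack the vacuoles of intracellular pathogens, stood a median of 2.70 log2 above the other arrays at IRLKO ZT8 replicate 3 and 1.83 at IRLKO ZT12 replicate 6. Gbp6, a guanylate-binding protein, was at 1.44 on the first of these arrays against -3.10 to -2.23 on the other 5, 20.5-fold above their median. Igtp, an immunity-related GTPase, was 12.6-fold and 5.14-fold above the median of the other 5 arrays on the first and second array. The 2 ligands of the receptor Cxcr3 stood a median of 3.64 and 2.00 log2 above: Cxcl9 was 20.7-fold and 3.83-fold above, and Cxcl10 7.53-fold and 4.15-fold. The 8 genes of the Ifit, Mx, Rsad2 and Isg15 group had medians of 1.72 and 1.60 log2, and the 5 genes of the 2'-5'-oligoadenylate synthetase (OAS) family 1.23 and 1.43. Sensors and transcription factors stood 0.88 and 0.93 above, and the other effectors 0.88 and 0.86. The 2 exceptions on the first array were Usp18, 1.15-fold above the median of the others, and Bst2, 1.35-fold above it.

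**Figure D1:**
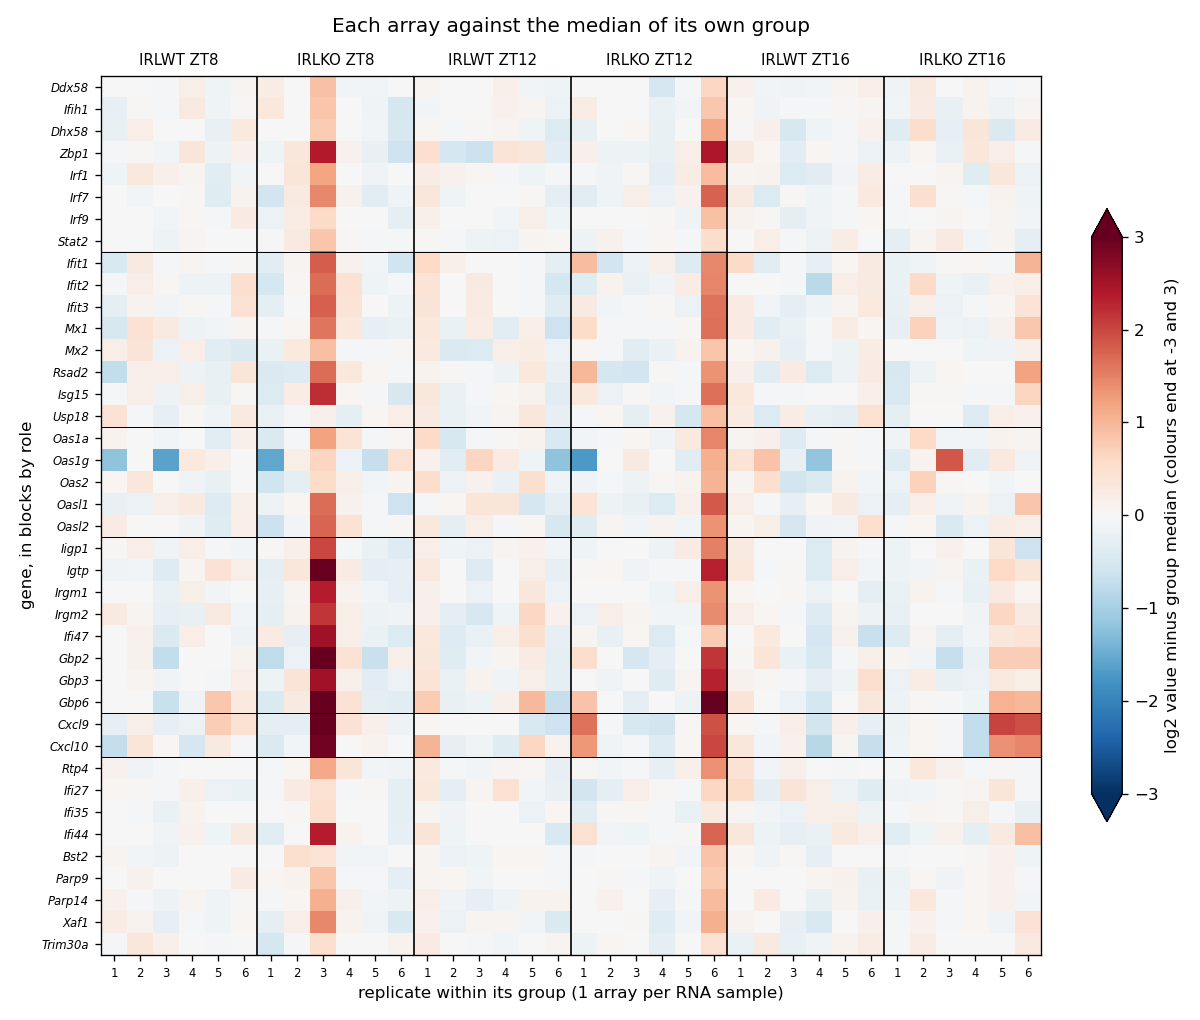
Log2 level of each of the 40 genes (rows, in blocks by role) on each of the 36 arrays (columns, by group and replicate) minus the median of its own group. Both outlying columns, IRLKO ZT8 replicate 3 and IRLKO ZT12 replicate 6, are red in nearly every row, with 38 and 40 of 40 genes above the other 5 arrays of their group.

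Other genes of the pathway were high on the same arrays. Of 40 further interferon-stimulated genes outside the set, 32 and 35 were above the other 5 arrays, and of 14 antigen presentation genes, 11 and 13 were. Of the 6 interferon ligands measured, 1 was above the other arrays on each. Ifng, which encodes interferon gamma, was at -2.57 on IRLKO ZT8 replicate 3, the highest value of a group in which 2 of 6 arrays measured it well above background. On IRLKO ZT12 replicate 6 it was 1.3-fold above the median of the other 5.

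Markers of several other cell types were also higher on these arrays, where 21.7% and 20% of all genes were above the other 5. Of 8 Kupffer cell and macrophage markers, 5 and 7 were above the other 5 arrays of the group, with medians of 1.06 and 1.16 log2. All 3 monocyte markers measured and all 4 B and plasma cell markers were above the others on the first array, against 2 and 1 on the second. Stellate cell and fibroblast markers were above the others in 5 and 4 of 6, bile duct markers in 3 and 1 of 4, and sinusoidal endothelial markers in 1 and 5 of 5. Neutrophil markers were above the others in 4 and 2 of 5, and T and NK cell markers in 4 and 3 of 7. Of 4 dendritic cell markers, 2 were above them on each array. The B and plasma cell and bile duct shares on the second array (25%) lay near that of all genes. So did the endothelial share on the first (20%). None of the 5 hepatocyte markers was above the others on either array. The part of these cells in the rise of the interferon-stimulated genes was not tested. The 75th percentiles of both arrays were 495 and 525, their shares of probes above background 62.1% and 59.8%, and they lay in different wash batches and on different slides. Insr was at -3.54 and -3.60, below every control array, the lowest of which was at -1.86. The comparisons of these genes are therefore given with all 36 arrays and with the 34 arrays that remain without these 2, an alternative chosen after the data had been seen.

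Since the genes moved together on these arrays, the 250 bases before the annotated start of each gene were searched for the ISRE-type motif GAAANNGAAA and the GAS-type motif TTCNNNGAA on both strands. RefSeq promoters (GRCm38.p6) were found for 29 of the 41 genes. The ISRE-type motif was present in 16 of the 34 promoter entries of these genes, 47.1%, against 2.98% of all 32851 entries of the same length. The GAS-type motif was present in 6 of the 34, 17.6%, against 7.02% of all entries, and in Bst2 it overlapped the ISRE-type motif. A match describes letters in this window and is not evidence of binding. Shown are 110-base windows from 6 promoters, with the motif matches in capitals, each read 5' to 3' along the strand of its gene. Isg15 and Ifit1 stand for the antiviral effectors with several matches, and Irgm1, Igtp, Irgm2 and Gbp2 for the GTPases. The windows are chr4:156200819-156200928 (minus strand) for Isg15, chr19:34640779-34640888 (plus) for Ifit1, chr11:48871421-48871530 (minus) for Irgm1, chr11:58199446-58199555 (plus) for Igtp, chr11:58214867-58214976 (plus) for Irgm2 and chr3:142620553-142620662 (plus) for Gbp2.
Isg15: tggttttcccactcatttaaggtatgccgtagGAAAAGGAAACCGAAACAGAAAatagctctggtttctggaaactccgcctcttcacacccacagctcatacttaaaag
Ifit1: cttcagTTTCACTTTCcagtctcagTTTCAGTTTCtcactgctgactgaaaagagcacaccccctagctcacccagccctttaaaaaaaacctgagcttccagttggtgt
Irgm1: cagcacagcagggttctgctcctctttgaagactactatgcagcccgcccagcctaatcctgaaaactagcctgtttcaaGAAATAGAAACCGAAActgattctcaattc
Igtp: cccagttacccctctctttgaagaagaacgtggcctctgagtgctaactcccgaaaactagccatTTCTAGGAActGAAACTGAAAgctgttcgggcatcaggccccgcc
Irgm2: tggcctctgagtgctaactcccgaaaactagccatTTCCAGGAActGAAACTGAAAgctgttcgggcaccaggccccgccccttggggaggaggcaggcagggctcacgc
Gbp2: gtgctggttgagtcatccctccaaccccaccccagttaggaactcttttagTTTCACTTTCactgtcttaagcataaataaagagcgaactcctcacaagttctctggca
Isg15 held 3 overlapping ISRE-type matches in a row. Igtp and Irgm2, whose starts lie close together on chromosome 11, held the same ISRE-type letters, GAAACTGAAA, next to a GAS-type match. By the genotype test described next, averaged over the times, the ISRE-type motif was present in 5 of 9 genes higher in IRLKO with a promoter entry, 2 of 6 lower and 8 of 13 that did not pass with 36 arrays, and in 5 of 8, 7 of 14 and 3 of 6 with 34. Oas3, which was not tested, also held it.

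The first comparison asked how loss of the hepatocyte insulin receptor changed these genes at each time. Differences are IRLKO minus IRLWT on the log2 scale, ± SE. With all 36 arrays, 9 of 40 genes (22.5%) passed the test at ZT8, against 35.5% of all genes. Of these 4 were higher in IRLKO, against 16.7% of all genes, and 5 lower, against 18.7%. For ZT12, 12 genes (30%) passed, against 42.3%, with 6 higher and 6 lower, against 19.6% and 22.7%. For ZT16, 11 genes (27.5%) passed, against 40%, with 4 higher and 7 lower, against 19.9% and 20%. In the mean of the 3 times, 21 genes (52.5%) passed, against 60% of all genes, with 12 higher and 9 lower, against 30% and 30.1%. The test was limma's, with Benjamini-Hochberg adjustment over all 22919 genes and a threshold of 0.05. With 36 arrays, the share of these genes that differed was thus below the background in each of these comparisons. The spread that enters these tests is pooled over groups and includes the high knockout arrays. The median within-group SD was 0.470 for these genes, against 0.245 over all genes. A lower share is therefore not read as a smaller response of these genes, and the ZT16 count depended on the samples fitted, as given in the last section. The genotype groups did not overlap for 4, 4 and 10 genes at ZT8, ZT12 and ZT16, against 15.5%, 21.4% and 19.2% of all genes.

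Without the 2 high arrays the counts were larger, with most of the added genes lower in IRLKO at ZT8 and ZT12. Both arrays were left out because these same genes were high on them. Their removal lowers the knockout means at ZT8 and ZT12 and the spread by construction. The added passes and the p-values with 34 arrays are therefore descriptive only. At ZT8, 22 genes (55%) passed, against 36.7% of all genes, with 4 higher and 18 lower, against 18.6% and 18.1%. At ZT12, 23 (57.5%) passed, against 42.9%, with 6 higher and 17 lower, against 20.9% and 22%. At ZT16, 24 (60%) passed, against 43.6%, with 14 higher and 10 lower, against 22.1% and 21.5%. In the mean over the times, 31 genes (77.5%) passed, against 60.8%, with 11 higher and 20 lower, against 31.2% and 29.5%. All genes that passed at a single time with 36 arrays passed there with 34. In the mean, 20 of 21 did, and Irf1 did not. Leaving out IRLKO ZT8 replicate 3 alone gave 18, 19 and 18 genes at ZT8, ZT12 and ZT16, and leaving out IRLKO ZT8 replicate 6 or IRLWT ZT8 replicate 6 gave 5 at ZT8. The median difference of the 40 genes at ZT8, ZT12, ZT16 and in the mean was -0.06, -0.01, 0.08 and 0.02 with 36 arrays and -0.22, -0.33, 0.07 and -0.16 with 34. The median within-group SD of the 40 genes was 0.470 with 36 arrays, against 0.245 over all genes, and 0.252 against 0.232 with 34.

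**Figure D2:**
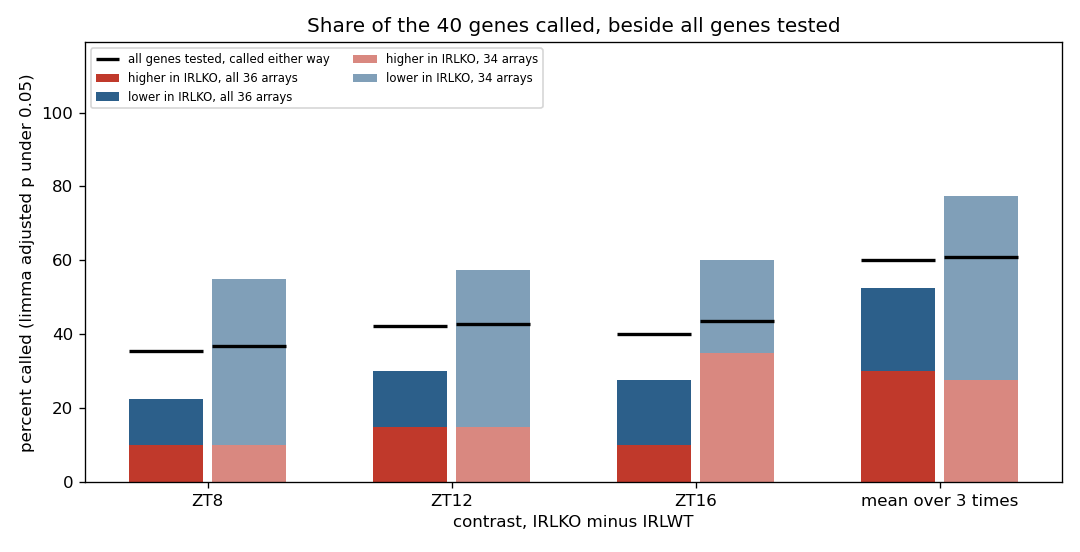
Percent of the 40 genes that passed limma's test between IRLKO and IRLWT, stacked by direction, at each time and in the mean over the times, with all 36 arrays (left bar of each pair) and with 34 arrays (right bar). Black lines give the percent of all 22919 genes that passed, which lies above the bars with 36 arrays (52.5% against 60% in the mean) and below them with 34 (77.5% against 60.8%).

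Direction was stable for some genes and mixed for the group. With 36 arrays, Usp18, Oas2 and Trim30a were higher and Ifi27, Dhx58, Ifih1 and Ifi35 lower in IRLKO at all 3 times. With 34 arrays Ifit1, Oasl1, Irgm1, Bst2 and Parp9, all lower, joined them. Among the 40 genes, 31 had the same sign at all times with 36 arrays, 15 higher and 16 lower. No share over all genes is given for these counts, so they describe these genes and are not read as a trait of the set. Removing any 1 of several arrays ended some single-time passes with 36 arrays: those of Ifih1 (7 such arrays, adjusted p up to 0.112), Dhx58 (4, up to 0.084), Ifi35 (10, up to 0.127) and Parp9 (3, up to 0.0735) at ZT8, and those of Dhx58 (21, up to 0.11) and Trim30a (11, up to 0.103) at ZT16.

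**Figure D3:**
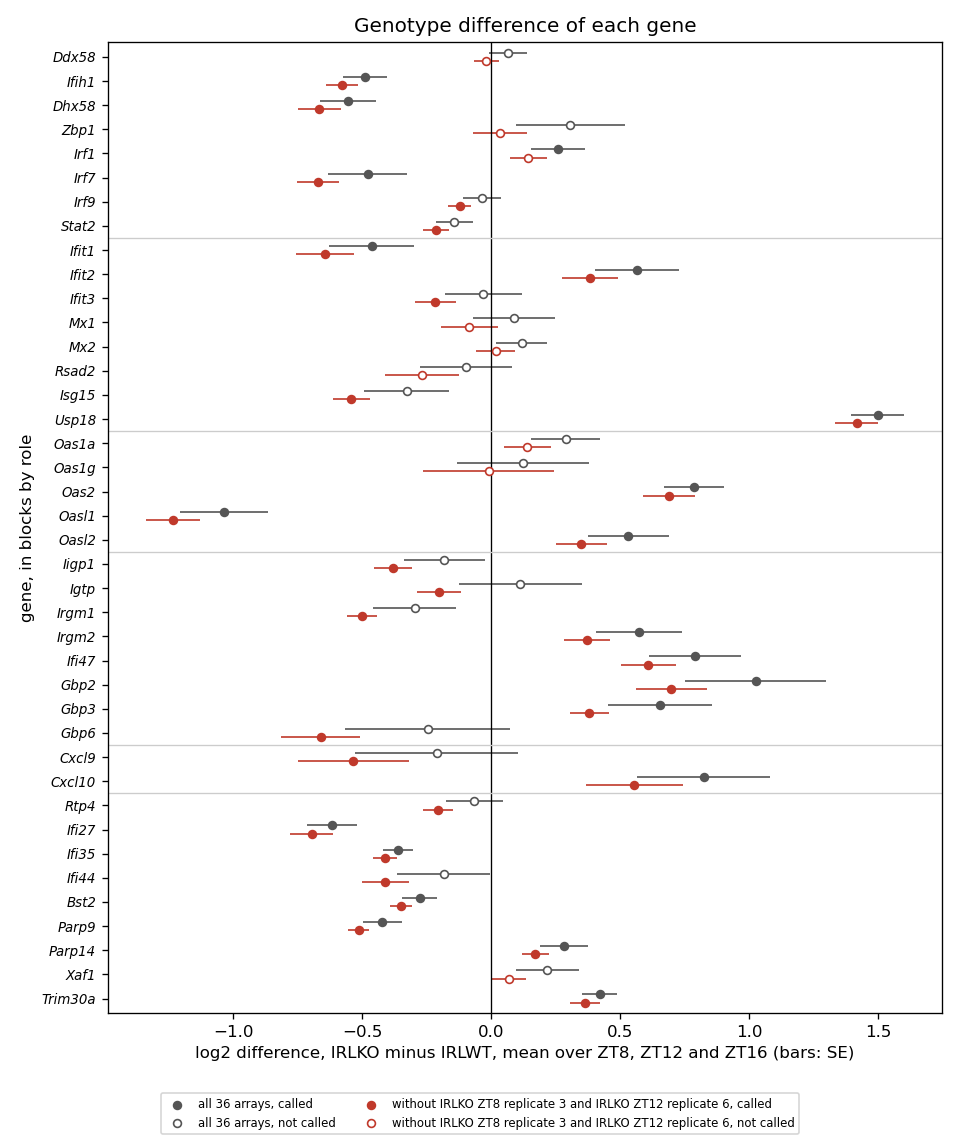
Log2 difference between IRLKO and IRLWT, averaged over ZT8, ZT12 and ZT16, for each of the 40 genes in blocks by role, with bars of 1 SE, for all 36 arrays (grey) and for 34 arrays (red). Filled points passed limma's test. Usp18 lies farthest right at 1.50 and Oasl1 farthest left at -1.03 with 36 arrays.

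Among the 8 sensors and signalling genes, 1 was higher and 3 were lower in the mean over the times, and with 34 arrays none was higher and 5 were lower. Ifih1 encodes MDA5, which detects long double-stranded RNA in the cytoplasm (A_51_P387810, chr2:62435621-62435680, probe and mm9 position). At ZT12 its lowest, median and highest levels were 1.16, 1.33 and 1.46 in IRLWT and 0.36, 0.56 and 1.37 in IRLKO. Only IRLKO ZT12 replicate 6 reached into the control range. At ZT16 the levels were 0.84, 0.95 and 1.02 in IRLWT and 0.29, 0.51 and 0.75 in IRLKO, with no overlap. At ZT8 they were 1.20, 1.45 and 1.72 in IRLWT and 0.44, 0.98 and 1.80 in IRLKO, where the high array lay above all controls. The mean difference was -0.49 ± 0.09 (adjusted p = 1.25e-05), and -0.58 ± 0.06 with 34 arrays. A second Ifih1 probe, A_55_P2738674, gave 0.02 and did not pass.

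Dhx58 encodes LGP2, the regulatory partner of the RNA sensors (A_52_P223809, chr11:100556271-100556330). At ZT12 its levels were -0.64, -0.23 and -0.15 in IRLWT and -1.35, -1.12 and 0.05 in IRLKO. The knockout values lay below every control value, except that of the high array, which lay above them. At ZT8 they were -0.32, -0.10 and 0.19 in IRLWT and -1.10, -0.62 and 0.15 in IRLKO. At ZT16 they were -0.83, -0.36 and -0.20 in IRLWT and -1.35, -0.91 and -0.38 in IRLKO, and the genotypes overlapped at both of these times. The mean difference was -0.55 ± 0.11 (adjusted p = 6.43e-05), and -0.67 ± 0.08 with 34 arrays. Ddx58, which encodes the sensor RIG-I, did not pass in the mean, at 0.06 ± 0.07, although a second probe, A_51_P393748, was higher by 0.30.

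Irf7, the transcription factor that amplifies interferon alpha production, was lower by 0.48 in the mean with 36 arrays (log2 -0.48 ± 0.15, adjusted p = 0.00777), and its difference was -0.67 ± 0.08 with 34. On the values of the authors' deposited table it was -0.35 and did not pass (adjusted p = 0.0622). At ZT16 its levels were 4.29, 4.69 and 4.99 in IRLWT and 3.77, 3.89 and 4.36 in IRLKO, the highest knockout value lying inside the control range. Its ZT16 pass ended without IRLWT ZT16 replicate 1 or replicate 6 (adjusted p up to 0.0595). Irf1, an activator induced by interferon gamma, was the only gene that passed in the mean with 36 arrays and not with 34: 0.26 ± 0.10 with 36 arrays (adjusted p = 0.0334) and 0.14 ± 0.07 with 34 (adjusted p = 0.0853). Leaving out any 1 of 6 arrays also ended its pass. Stat2 and Irf9, which act together at the ISRE, did not pass with 36 arrays, at -0.14 ± 0.07 and -0.04 ± 0.07, and were lower with 34, at -0.21 ± 0.05 and -0.12 ± 0.05. Zbp1, a sensor of Z-form nucleic acid, was at 0.31 ± 0.21 and did not pass, whereas its second probe, A_66_P139683, was higher by 0.69.

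In the group of Ifit, Mx, Rsad2 and Isg15 genes, 2 of 8 were higher and 1 was lower with 36 arrays, and 2 were higher and 3 lower with 34. Usp18, the protease that removes Isg15 from proteins and restrains signalling at the type I interferon receptor, had the largest difference among the 40 genes (A_55_P2114953, chr6:121220874-121220933). At ZT8 its lowest, median and highest levels were 0.85, 1.09 and 1.52 in IRLWT and 2.65, 2.93 and 3.13 in IRLKO. At ZT12 they were 0.04, 0.29 and 0.63 in IRLWT and 0.99, 1.52 and 2.41 in IRLKO. The genotypes were fully separated at both times. At ZT16 they were -0.45, -0.04 and 0.41 in IRLWT and 1.14, 1.54 and 1.74 in IRLKO, again without overlap. Usp18 was thus 3.42-fold, 2.32-fold and 2.84-fold higher in IRLKO, with log2 differences of 1.77 ± 0.18, 1.21 ± 0.18 and 1.51 ± 0.18 (limma adjusted p = 3.72e-09, 2.28e-06 and 6.32e-08). In the mean it was 1.50 ± 0.10 with 36 arrays and 1.42 ± 0.08 with 34.

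Isg15 is the ubiquitin-like protein that Usp18 removes, and it did not pass in the mean with 36 arrays. At ZT8 its levels were 2.98, 3.21 and 3.38 in IRLWT and 2.08, 2.56 and 4.77 in IRLKO, and at ZT12 they were 2.67, 2.99 and 3.33 and 1.92, 2.10 and 3.75. In both knockout groups 5 of 6 values lay below the lowest control and the high array lay above the highest. The mean difference was -0.33 ± 0.17 with 36 arrays (adjusted p = 0.0889) and -0.54 ± 0.07 with 34 (adjusted p = 2.84e-07).

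The Ifit genes, whose products bind foreign RNA ends, differed in direction from one another. Ifit1 was at -1.62, -1.32 and -0.75 in IRLWT and -2.00, -1.80 and -0.78 in IRLKO at ZT16, and its mean difference was -0.46 ± 0.16 (adjusted p = 0.0163), or -0.65 ± 0.11 with 34 arrays. The 2 groups overlapped. Ifit2 was at -4.22, -3.42 and -3.14 in IRLWT and -3.04, -2.85 and -2.27 in IRLKO at that time, without overlap, and its mean difference was 0.57 ± 0.16 (adjusted p = 0.00341), or 0.38 ± 0.11 with 34 arrays. This difference was 0.26 with normexp background correction and 0.33 on the values of the authors' deposited table. The ZT12 difference of Ifit2, 0.86 ± 0.28, became 0.54 without IRLKO ZT12 replicate 6 alone and did not pass (adjusted p = 0.089). With 34 arrays it passed limma's test at 0.57 ± 0.19 (adjusted p = 0.0185), which is descriptive only, as said above. Ifit3 did not pass with 36 arrays (-0.03 ± 0.15) and was lower with 34 (-0.22 ± 0.08). Mx1 and Mx2, GTPases that block viral nucleocapsids, and Rsad2, which encodes viperin, did not pass in the mean with either set of arrays. Their differences with 36 arrays were 0.09 ± 0.16, 0.12 ± 0.10 and -0.10 ± 0.18.

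The OAS family split by gene, with 2 of 5 higher and 1 lower in both fits. Oas2, which makes the 2'-5'-oligoadenylates that activate RNase L, was higher at every time (A_55_P2019719, chr5:121180343-121180402). At ZT8 its levels were 0.62, 0.83 and 1.18 in IRLWT and 1.19, 1.78 and 2.33 in IRLKO. At ZT12 they were 0.45, 0.66 and 1.18 and 1.30, 1.45 and 2.47. The genotypes did not overlap at either time, and at ZT16 they did, with levels of 0.62, 1.18 and 1.66 in IRLWT and 1.46, 1.63 and 2.32 in IRLKO. Oas2 was 1.85-fold, 1.81-fold and 1.53-fold higher at ZT8, ZT12 and ZT16 (adjusted p = 0.000861, 0.00107 and 0.0158). Without IRLKO ZT16 replicate 2 the ZT16 difference was 0.49 and did not pass (adjusted p = 0.0645). The mean difference was 0.79 ± 0.12, and 0.69 ± 0.10 with 34 arrays.

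Oasl1, an OAS-like protein known to inhibit translation of Irf7, moved the other way (A_55_P2086433, chr5:115387861-115387920). At ZT12 its levels were 2.21, 2.71 and 3.07 in IRLWT and 0.64, 1.04 and 2.88 in IRLKO, where only the high array entered the control range. At ZT16 they were 2.45, 2.68 and 2.95 and 1.28, 1.55 and 2.37, without overlap. Oasl1 was 2.53-fold lower at ZT12 (log2 -1.34 ± 0.29, adjusted p = 0.000506) and 2.07-fold lower at ZT16 (-1.05 ± 0.29, adjusted p = 0.00509). At ZT8 the levels were 2.04, 2.43 and 2.71 in IRLWT and 0.94, 1.57 and 3.23 in IRLKO, where the high array was above all controls. The ZT8 difference did not pass with 36 arrays (-0.72 ± 0.29, adjusted p = 0.0579) and was lower with 34 (-0.98 ± 0.19). Oasl2 was higher in the mean at 0.53 ± 0.16 (adjusted p = 0.00452), or 0.35 ± 0.10 with 34 arrays. Oas1a and Oas1g did not pass in either fit, at 0.29 ± 0.13 and 0.12 ± 0.25 with 36 arrays.

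**Figure D4:**
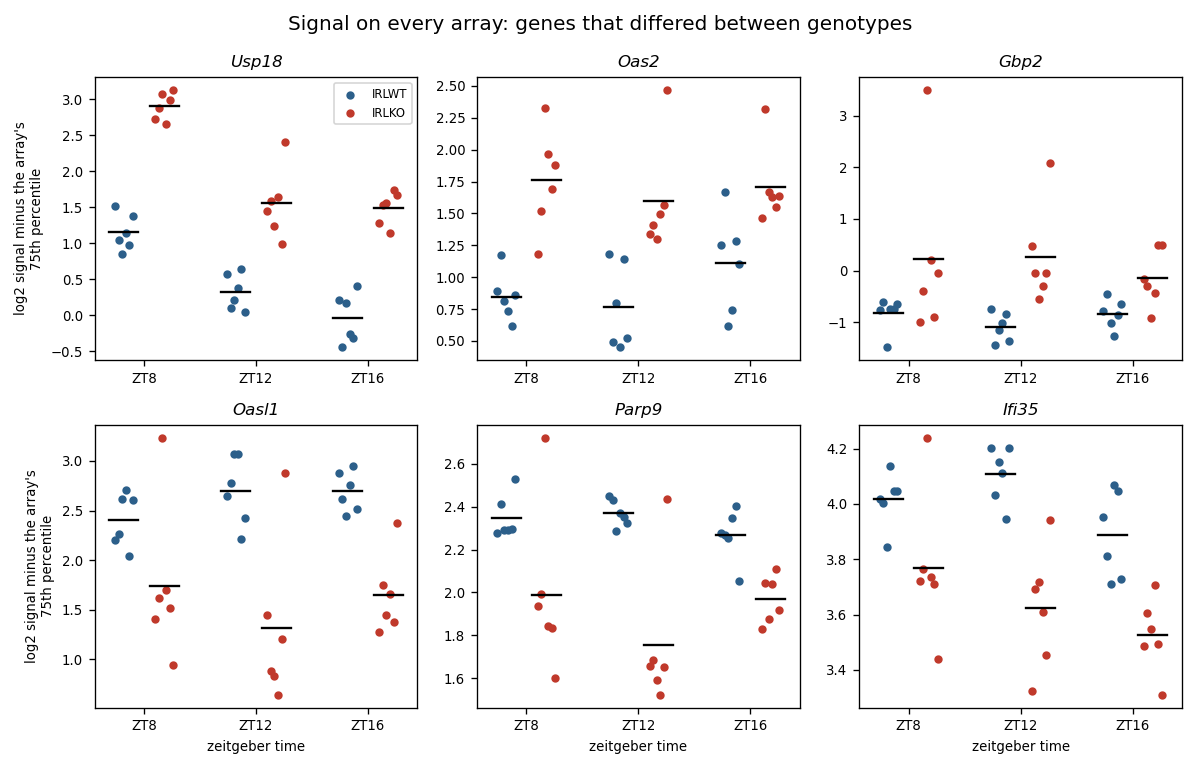
Log2 level on every array (points) with group means (bars) for Usp18, Oas2 and Gbp2, higher in IRLKO, and Oasl1, Parp9 and Ifi35, lower in IRLKO, at ZT8, ZT12 and ZT16. The highest knockout point of Gbp2, Oasl1, Parp9 and Ifi35 at ZT8 is replicate 3 and at ZT12 is replicate 6, while all Usp18 knockout points lie above the control points of the same time.

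Of the 8 interferon-inducible GTPases, 4 were higher and none was lower with 36 arrays, while with 34 arrays 4 were higher and 4 were lower. Gbp2 is a guanylate-binding protein that coats pathogen vacuoles (A_51_P203955, chr3:142300719-142300778). At ZT12 its levels were -1.45, -1.09 and -0.74 in IRLWT and -0.56, -0.05 and 2.09 in IRLKO, without overlap. At ZT8 they were -1.49, -0.74 and -0.62 and -1.00, -0.23 and 3.50, and the groups overlapped. The ZT16 levels were -1.27, -0.82 and -0.46 in IRLWT and -0.93, -0.23 and 0.50 in IRLKO, also overlapping. Gbp2 was 2.04-fold higher in the mean (1.03 ± 0.27, adjusted p = 0.00183), or 0.70 ± 0.14 with 34 arrays. Its ZT12 difference of 1.39 ± 0.48 (adjusted p = 0.0191) became 0.93 without IRLKO ZT12 replicate 6 alone and did not pass (adjusted p = 0.103). With 34 arrays it was 0.99 ± 0.25 (limma adjusted p = 0.00196). That pass is descriptive only, because the spread falls by construction when both high arrays are left out.

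Ifi47, an immunity-related GTPase also called IRG-47, passed at ZT12 and ZT16 and not at ZT8 (A_55_P1998416, chr11:48910402-48910461). At ZT16 its levels were 1.25, 1.93 and 2.22 in IRLWT and 2.59, 2.97 and 3.38 in IRLKO, without overlap. At ZT8 they were 1.86, 2.30 and 2.50 and 1.89, 2.30 and 4.84, with equal medians. At ZT12 they were 1.83, 2.22 and 2.71 in IRLWT and 2.61, 3.03 and 3.78 in IRLKO, and the lowest knockout value lay inside the control range. It was 2.22-fold higher at ZT16 (adjusted p = 0.0035) and 1.77-fold at ZT12 (adjusted p = 0.0321), a pass that leaving out any 1 of 4 arrays ended. Gbp3 and Irgm2 were higher in the mean at 0.65 ± 0.20 and 0.57 ± 0.17 (adjusted p = 0.00613 and 0.00369), and with 34 arrays at 0.38 ± 0.08 and 0.37 ± 0.09. The ZT8 pass of Gbp3 (0.95 ± 0.35) ended without any 1 of 4 arrays, among them IRLKO ZT8 replicate 3 (adjusted p up to 0.154). With 34 arrays Gbp3 passed limma's test at ZT8 at 0.59 ± 0.13 (adjusted p = 0.000849), which is descriptive only.

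The other 4 GTPases passed only with 34 arrays, all lower in IRLKO. Irgm1, a regulator of the other immunity-related GTPases, was at 2.43, 2.64 and 2.81 in IRLWT and 1.89, 2.15 and 4.50 in IRLKO at ZT8. Of the 6 knockout values, only that of the high array lay above the control range. Its mean difference was -0.30 ± 0.16 with 36 arrays (adjusted p = 0.113) and -0.50 ± 0.06 with 34 (adjusted p = 1.37e-08). Iigp1, Igtp and Gbp6 were at -0.38 ± 0.08, -0.20 ± 0.09 and -0.66 ± 0.15 with 34 arrays, against -0.18 ± 0.16, 0.11 ± 0.24 and -0.25 ± 0.32 with 36. A second Iigp1 probe, A_55_P2935900, was higher by 0.65 with 36 arrays, so the probes of this gene disagree.

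The chemokines Cxcl9 and Cxcl10 recruit T cells through Cxcr3, and with 36 arrays Cxcl10 passed in the mean and Cxcl9 did not. Cxcl10 was at -1.23, -0.40 and -0.05 in IRLWT and -0.69, 0.05 and 1.52 in IRLKO at ZT16, and the groups overlapped. Its mean difference was 0.82 ± 0.26 (adjusted p = 0.00659), or 0.55 ± 0.19 with 34 arrays (adjusted p = 0.0116). Cxcl9 was at -1.10, -0.56 and -0.36 in IRLWT and -1.97, -1.25 and 0.77 in IRLKO at ZT16. The knockout values spread on both sides of the controls: replicates 5 and 6 were at 0.77 and 0.68, and the other 4 lay at or below -1.18. Its mean difference was -0.21 ± 0.31 with 36 arrays and -0.53 ± 0.22 with 34 (adjusted p = 0.584 and 0.034).

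Among the 9 other effectors, 2 were higher and 4 lower with 36 arrays, and 2 were higher and 6 lower with 34. Ifi27, a small mitochondrial and nuclear-envelope protein, was lower at every time (A_52_P86693, chr12:104678353-104678412). At ZT8 its levels were 5.63, 5.83 and 5.99 in IRLWT and 4.81, 5.09 and 5.54 in IRLKO, without overlap. At ZT12 they were 5.61, 5.91 and 6.37 and 4.71, 5.27 and 5.89, overlapping. At ZT16 they were 5.21, 5.57 and 6.12 in IRLWT and 4.96, 5.07 and 5.43 in IRLKO, and the groups again overlapped. IRLKO livers held 64.6%, 61.5% and 69.7% of the control signal at ZT8, ZT12 and ZT16 (adjusted p = 0.00363, 0.00113 and 0.0132), and the mean difference was -0.62 ± 0.10, or -0.70 ± 0.08 with 34 arrays.

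Ifi35, which regulates signalling by the RNA sensors, had a smaller difference with little spread (A_66_P135015, chr11:101319678-101319737). Its levels were 3.94, 4.13 and 4.20 in IRLWT and 3.32, 3.65 and 3.94 in IRLKO at ZT12, the genotypes just separated. They were 3.71, 3.88 and 4.07 and 3.31, 3.52 and 3.71 at ZT16, where the highest knockout value also lay below the lowest control value. The ZT8 levels were 3.84, 4.03 and 4.14 in IRLWT and 3.44, 3.73 and 4.24 in IRLKO, and the high array lay above all controls. IRLKO livers held 72.4% and 78.3% of the control signal at ZT12 and ZT16, and the log2 difference at ZT8 was -0.27. The mean difference was -0.36 ± 0.06 (adjusted p = 3.32e-06), or -0.41 ± 0.05 with 34 arrays. It was -0.23 with normexp background correction and on the values of the authors' deposited table.

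Trim30a, a ubiquitin ligase that restrains innate immune signalling, was higher at every time with the probe used (A_55_P2733602, chr7:111579140-111579199). At ZT12 its levels were -1.06, -0.97 and -0.73 in IRLWT and -0.77, -0.51 and -0.05 in IRLKO. The lowest knockout value lay just inside the control range. The ZT8 levels were -1.00, -0.93 and -0.60 in IRLWT and -0.87, -0.36 and 0.11 in IRLKO. The ZT16 levels were -1.08, -0.86 and -0.60 in IRLWT and -0.67, -0.61 and -0.35 in IRLKO, and the genotypes overlapped at both of these times. The log2 differences were 0.49 ± 0.12, 0.47 ± 0.12 and 0.30 ± 0.12 at ZT8, ZT12 and ZT16, and the mean was 0.42 ± 0.07 (adjusted p = 4.3e-06), or 0.36 ± 0.06 with 34 arrays. Its further probes A_52_P442567 and A_55_P2734707 were higher by 0.33 and 0.46 in the mean and passed at no single time (adjusted p from 0.0523 to 0.421).

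Parp9, an ADP-ribosyltransferase that works with the ubiquitin ligase Dtx3l, was lower (A_55_P2142863, chr16:35972577-35972636). At ZT12 its levels were 2.29, 2.36 and 2.45 in IRLWT and 1.52, 1.66 and 2.43 in IRLKO. Without the high array the knockout values lay well below all controls. The ZT8 levels were 2.28, 2.29 and 2.53 in IRLWT and 1.60, 1.89 and 2.72 in IRLKO, where the high array lay above all controls. The ZT16 levels were 2.05, 2.27 and 2.40 in IRLWT and 1.83, 1.98 and 2.11 in IRLKO, overlapping. The mean difference was -0.42 ± 0.07 (adjusted p = 1.47e-05), or -0.51 ± 0.04 with 34 arrays. Of its other probes, A_55_P2717515 gave -0.78 and A_55_P2142858, well above background on 21 arrays, gave -0.09 and did not pass. Parp14, a related ADP-ribosyltransferase, was higher at 0.28 ± 0.09 (adjusted p = 0.0102), or 0.17 ± 0.05 with 34 arrays, and passed at no single time with 36. Its second probe, A_52_P97680, was higher by 0.53 in the mean and passed at all 3 times.

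Bst2, which encodes tetherin and holds budding virus at the cell surface, was lower in the mean at -0.28 ± 0.07 (adjusted p = 0.000721), or -0.35 ± 0.04 with 34 arrays (A_51_P169693, chr8:74058603-74058662). It was -0.18 with normexp background correction and on the values of the authors' deposited table. At ZT16 its levels were 5.52, 5.77 and 5.83 in IRLWT and 5.19, 5.33 and 5.45 in IRLKO, without overlap. The ZT8 levels were 5.51, 5.66 and 5.75 in IRLWT and 5.22, 5.31 and 5.79 in IRLKO. At ZT12 they were 5.51, 5.69 and 5.76 in IRLWT and 5.23, 5.30 and 6.16 in IRLKO, and at both times the highest knockout value lay above all controls. Ifi44 and Rtp4 passed only with 34 arrays, lower at -0.41 ± 0.09 and -0.21 ± 0.06. Xaf1, a pro-apoptotic protein, did not pass in either fit, at 0.22 ± 0.12 and 0.07 ± 0.07.

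The mean differences of the genes that passed with 36 arrays, Irf1 apart, also passed with any single array left out. Each of the 3 wash batches held all 6 groups, so the genotypes could be compared in 9 combinations of batch and time. Of the genes that passed in the mean, Usp18, Oas2, Ifi35, Trim30a, Gbp2, Irgm2 and Cxcl10 kept its sign in 9 of 9. Ifih1, Dhx58, Ifi27, Ifi47, Oasl2 and Gbp3 did so in 8, and Oasl1, Parp9, Bst2, Ifit1, Ifit2, Irf1, Irf7 and Parp14 in 7. These differences come from the same arrays as the mean, some with 1 array in a group, and no share over all genes is given. In 19 genes with more than 1 kept probe, 19 of 25 further probes had the sign of the probe used. Beside those given above, the further probes of Irf1 (A_52_P175685), Ifi44 (A_52_P550858), Rsad2 (A_51_P505132) and Irf9 (A_51_P127367) had the opposite sign in the mean, at -0.09, 0.29, 0.12 and 0.01, and did not pass. A further Xaf1 probe, A_55_P1966838, well above background on only 6 arrays, was higher by 0.62.

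The second comparison asked whether the genes changed between times within a genotype. With 36 arrays, 2 of 40 genes passed from ZT8 to ZT12 in IRLWT, against 14.8% of all genes, and 7 from ZT8 to ZT16, against 26.6%. In IRLKO, 2 passed from ZT8 to ZT12, against 13.2%, and 4 from ZT8 to ZT16, against 28.9%. From ZT12 to ZT16, no gene passed limma's test in IRLWT, against 3.62% (3 had an unadjusted p under 0.05), and 1 passed in IRLKO, against 12.6%. Each of these shares was below the background. With 34 arrays, in the same order of interval, 4, 17 and 4 genes passed in IRLWT, against 17.3%, 29.3% and 5.12%, and 6, 8 and 7 in IRLKO, against 15.4%, 33.2% and 14.1%. The shares with 34 arrays lay above the background from ZT8 to ZT16 and from ZT12 to ZT16 in IRLWT. In IRLKO only the share from ZT12 to ZT16 did. No IRLWT array was left out, so the added IRLWT passes come with the smaller pooled spread, which falls by construction. The counts with 34 arrays and their place against the background are therefore descriptive only. Single arrays moved the IRLKO counts: from ZT8 to ZT12, 11 genes passed without IRLKO ZT12 replicate 6, 5 without IRLKO ZT8 replicate 3 and 1 without IRLKO ZT8 replicate 5. From ZT8 to ZT16, 8 passed without IRLKO ZT12 replicate 6. From ZT12 to ZT16, 3 passed without IRLKO ZT12 replicate 6 and none without any 1 of IRLKO ZT12 replicates 1, 3 and 5 and IRLKO ZT16 replicates 2, 3 and 5.

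Usp18 fell in both genotypes. The log2 difference of ZT12 minus ZT8 was -0.83 ± 0.18 in IRLWT and -1.39 ± 0.18 in IRLKO, and that of ZT16 minus ZT8 was -1.17 ± 0.18 and -1.44 ± 0.18 (adjusted p = 7e-06 and 2.73e-07). With 34 arrays the ZT16 minus ZT8 differences were -1.15 ± 0.14 and -1.45 ± 0.15. The ZT8 levels did not overlap those at ZT12 or ZT16 in either genotype.

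Stat2 moved the opposite way and rose from ZT8 to ZT16 (A_55_P2059606, chr10:127729834-127729893). In IRLWT its levels were 2.52, 2.68 and 2.75 at ZT8, 3.11, 3.28 and 3.36 at ZT12 and 3.25, 3.39 and 3.61 at ZT16. In IRLKO they were 2.34, 2.39 and 3.23, 2.75, 2.89 and 3.43 and 3.12, 3.42 and 3.69. The ZT8 controls lay below all later controls, whereas in IRLKO the high array at ZT8 overlapped the later groups. The rise from ZT8 to ZT16 was 0.76 ± 0.12 in IRLWT and 0.85 ± 0.12 in IRLKO (adjusted p = 1.76e-05 and 3.64e-06), or 0.76 ± 0.09 and 0.98 ± 0.09 with 34 arrays. From ZT8 to ZT12 it passed in IRLWT at 0.58 ± 0.12 (adjusted p = 0.00124), also with any single array left out. In IRLKO it also passed from ZT8 to ZT12, at 0.44 ± 0.13, which leaving out IRLKO ZT12 replicate 6 or IRLKO ZT8 replicate 5 ended, and from ZT12 to ZT16, the single gene of that interval. Usp18 and Stat2 were the 2 genes that passed from ZT8 to ZT12 in each genotype. With the mean of a gene's kept probes only 1 of them did. Usp18 has 1 probe and Stat2 a second one, A_66_P102138, so the Stat2 pass from ZT8 to ZT12 depends on the probe used.

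The other genes that passed with time mostly fell from ZT8 to ZT16 in IRLWT. Xaf1 was at -0.31, -0.07 and 0.15 at ZT8 and -1.27, -0.82 and -0.66 at ZT16 (A_55_P1966833, chr11:72122169-72122228), without overlap, a difference of -0.78 ± 0.21 (adjusted p = 0.00557). At ZT12 it was at -0.83, -0.41 and -0.29, overlapping both. In IRLKO its levels were -0.51, -0.06 and 1.40 at ZT8, -0.85, -0.50 and 0.57 at ZT12 and -0.62, -0.52 and -0.09 at ZT16, all overlapping. Mx1 was at -2.90, -2.42 and -2.00 and -3.63, -3.30 and -3.05 at these times (A_55_P2118441, chr16:97668644-97668703), also without overlap, a difference of -0.87 ± 0.28 (adjusted p = 0.0176). At ZT12 it was at -3.37, -2.74 and -2.42. In IRLKO its levels were -2.90, -2.66 and -1.05 at ZT8, -3.26, -3.20 and -1.53 at ZT12 and -3.41, -3.17 and -2.36 at ZT16. The 3 knockout groups overlapped. Mx2 was at -0.16, 0.27 and 0.67 at ZT8, -0.34, 0.10 and 0.40 at ZT12 and -0.53, -0.29 and -0.06 at ZT16 in IRLWT. In IRLKO it was at -0.21, -0.01 and 0.88, -0.23, 0.09 and 0.93 and -0.03, 0.08 and 0.24 at these times, with overlap between all of them. In IRLWT, Mx2 differed from ZT8 to ZT16 by -0.51 ± 0.17, with overlap (A_51_P514085, chr16:97782327-97782386, adjusted p = 0.0251), and Ddx58 by -0.38 ± 0.13, without overlap (adjusted p = 0.0291). In IRLKO the corresponding differences were -0.54 ± 0.21 for Xaf1, -0.55 ± 0.28 for Mx1, -0.06 ± 0.17 for Mx2 and -0.07 ± 0.13 for Ddx58, none of which passed with 36 arrays. With 34 arrays the differences in IRLWT were -0.78 ± 0.11 for Xaf1, -0.87 ± 0.19 for Mx1, -0.51 ± 0.13 for Mx2 and -0.38 ± 0.08 for Ddx58, and in IRLKO Xaf1 passed at -0.33 ± 0.12 (adjusted p = 0.0301). Ifih1 fell in both genotypes, with log2 differences of -0.49 ± 0.15 in IRLWT and -0.53 ± 0.15 in IRLKO, and Irf9 passed in IRLKO at -0.33 ± 0.13 (adjusted p = 0.049). Removing any 1 of 28 arrays ended the Irf9 pass (adjusted p up to 0.166), any 1 of 4 that of Mx2 (up to 0.0731) and any 1 of 6 that of Ddx58 (up to 0.0676).

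**Figure D5:**
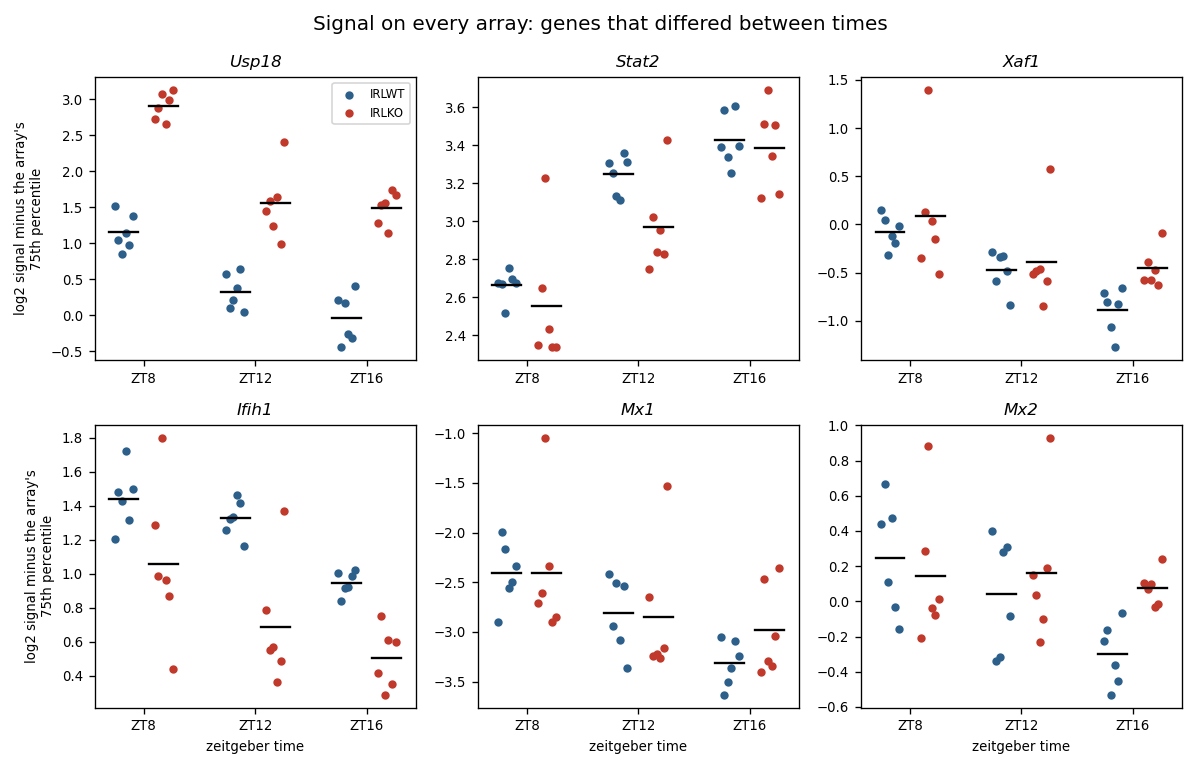
Log2 level on every array (points) with group means (bars) at ZT8, ZT12 and ZT16 in IRLWT (blue) and IRLKO (red) for the 6 genes with a time difference described in full. Usp18 falls and Stat2 rises after ZT8 in both genotypes, while the top knockout point of the other genes at ZT8 and ZT12 is one of the 2 high arrays.

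Whether the genotype difference itself changed with time was tested with an F test of the interaction. With 36 arrays no gene of 40 passed and none had an unadjusted p under 0.05, against 8.46% of all genes that passed, and the lowest adjusted p was 0.349. Leaving out IRLKO ZT12 replicate 6 or IRLKO ZT8 replicate 3 alone, 1 passed. With 34 arrays 7 of 40 passed, against 12.9% of all genes: Isg15, Usp18, Rtp4, Ddx58, Ifi47, Parp9 and Xaf1. High knockout arrays were left out at ZT8 and ZT12 and none at ZT16, which moves the genotype difference between times by construction. These passes and their p-values are therefore descriptive only. The Isg15 differences for ZT8, ZT12 and ZT16 were -0.74 ± 0.13, -0.89 ± 0.13 and 0.00 ± 0.12 with 34 arrays (F test adjusted p = 0.00173). Ifi47 went from -0.03 ± 0.19 to 0.67 ± 0.19 and 1.18 ± 0.18 (adjusted p = 0.00687). Parp9 was -0.52 ± 0.07, -0.73 ± 0.07 and -0.29 ± 0.07 (adjusted p = 0.00749), lower at each time and least so at ZT16. With 34 arrays, the change of the genotype difference from ZT8 to ZT16 passed for 7 genes, all in the direction of higher in IRLKO at ZT16. Over all genes 14.4% passed, 7.38% in that direction. For these 40 genes, leaving out a high knockout array at ZT8 favours that direction by construction.

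The other parts of the pathway were measured beside these genes, from lists chosen by function. Of 10 interferon ligands listed, 6 were measured, and in the mean over the times 1 was higher in IRLKO and none lower. Ifng was well above background on 6 of 6 IRLKO arrays at ZT12 and at ZT16, on 2 of 6 at ZT8 and on 1 of 6 in each IRLWT group. Its lowest, median and highest levels at ZT16 were -7.42, -5.63 and -4.96 in IRLWT, where most values lie at background, and -4.80, -4.25 and -3.98 in IRLKO, without overlap. It passed as higher in the mean (adjusted p = 0.000155, and 0.000346 with 34 arrays), and no fold is given because most control values are not above background. Ifnk and Ifnl3, a type I and a type III interferon, were at -0.15 ± 0.10 and -0.25 ± 0.11 and did not pass.

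Of 15 receptor and JAK-STAT genes, 8 were higher and 1 was lower, among them Il10rb, a receptor chain shared with type III interferons, at 0.79 ± 0.07, Stat3 at 0.59 ± 0.06 and Ifnar2, a chain of the type I receptor, at 0.35 ± 0.04. Of 16 genes of nucleic acid sensing upstream of interferon, 7 were higher and 6 lower, with Trim25, the ubiquitin ligase of RIG-I, at 0.89 ± 0.07, Mavs, the adaptor of the RNA sensors, at -0.33 ± 0.05 and Irf2, a repressor of interferon-responsive promoters, at -0.68 ± 0.04. Of 14 antigen presentation genes measured, 3 were higher and 4 lower. B2m, the light chain of the class I complex, was at -0.66 ± 0.05 and the class I heavy chains H2-K1 and H2-D1 at -0.53 ± 0.04 and -0.34 ± 0.04. Of 40 further interferon-stimulated genes, 18 were higher and 7 lower, with Sp100 at 0.65 ± 0.07, Ifitm1 at 0.56 ± 0.07 and Lgals9 at -0.89 ± 0.07. These counts stand against 60% of all genes that passed in this comparison, 30% higher and 30.1% lower. With 34 arrays, 8 receptor and JAK-STAT genes were higher and 1 lower, 6 sensing genes higher and 6 lower, 3 antigen presentation genes higher and 6 lower, and 15 further interferon-stimulated genes higher and 10 lower, and of the ligands 1 was higher and 1, Ifnl3, lower.

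Markers of non-hepatocyte cells differed between the genotypes in the same livers. In the mean over the times, 8 of 8 Kupffer cell and macrophage markers were higher in IRLKO (median log2 difference 0.75), as were 4 of 4 B and plasma cell markers (1.16), 5 of 7 T and NK cell markers (0.80) and 2 of 3 monocyte markers (0.84). Of the T and NK cell markers 1 was lower, Cd3e at -0.27. Of 5 neutrophil markers 3 were higher and 1 was lower, and of 4 dendritic cell markers 1 was higher and 1 lower. Endothelial markers were higher in 4 of 5, stellate cell markers in 2 of 6 and bile duct markers in 1 of 4. Of 5 hepatocyte markers 1 was higher and 3 were lower. Over all genes 30% were higher and 30.1% lower, so that the shares of the stellate cell, bile duct and dendritic cell lists lay near or below that of all genes. With 34 arrays the macrophage, B and plasma cell, endothelial, stellate cell and bile duct counts were the same, 6 of 7 T and NK cell markers were higher, and 1 of 3 monocyte markers was. The mean level of the 8 macrophage markers ranged from 1.22 to 2.31 in IRLWT and from 1.77 to 3.26 in IRLKO at ZT8, from 1.11 to 2.76 and from 2.10 to 3.70 at ZT12, and from 1.43 to 2.94 and from 2.34 to 3.81 at ZT16. The mean level of the 5 hepatocyte markers ranged from 8.00 to 8.19 in IRLWT and from 7.58 to 8.01 in IRLKO at ZT8. At ZT12 the ranges were 8.15 to 8.42 and 7.83 to 8.24. At ZT16 they were 8.26 to 8.38 and 8.06 to 8.14, without overlap. The part of these cells in the differences of the interferon-stimulated genes was not tested.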

How the data were processed

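The deposited scanner files of 36 single-colour Cy3 Agilent SurePrint G3 mouse arrays were used. Per the file headers, the authors extracted spots with Agilent Feature Extraction 10.10.1.1, and gProcessedSignal is a background-corrected intensity. A deposited table of the authors' log2 values (32801 probes, method not given in the sources used here) served as an alternative.

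Outlier spots were removed, each array was scaled to its 75th percentile, and log2 values of 34681 probes, of 56605, were reduced to 22919 genes. Probe positions are mm9 as the files give them, without exon annotation, and 37 symbols matched RefSeq by accession. Group means with a wash-batch term were fitted with limma 3.58.1 in R 4.3.3 (lmFit, eBayes), with Benjamini-Hochberg adjustment and a threshold of 0.05. Genes given in full were the 12 with the smallest p over the 4 genotype contrasts, among those that passed, and the 6 with the smallest p over the 6 time contrasts. Up to 3 genes a pathway list were named by smallest p, and other genes where a result turned on them. The fit was tested on simulated data. Members and lists were chosen with earlier results of these data known. Replicate numbers did not pair samples. Alternatives covered background correction, normalization, filters, probes, batches, weights and arrays left out.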

Additional observations from a re-analysis of the deposited data

Results flagged for a closer look

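A gap test within groups of 6 (Dixon, 95%), which chance passes in about 1 of 20 groups, singled out an array in 59 of 240 combinations of gene and group, where chance gives 12. Among the 16 genes given in full it did so in 18 of 96, where chance gives 4.8.

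Most of these were on the 2 high arrays. On IRLKO ZT8 replicate 3 they were Stat2 (log2 level 3.23), Oasl1 (3.23), Mx1 (-1.05), Ifi47 (4.84), Gbp2 (3.50), Parp9 (2.72), Xaf1 (1.40) and the mean of the 40 genes (2.68). On IRLKO ZT12 replicate 6 they were Oas2 (2.47), Oasl1 (2.88), Mx1 (-1.53), Mx2 (0.93), Dhx58 (0.046), Bst2 (6.16), Parp9 (2.43), Xaf1 (0.57) and the mean of the 40 genes (2.29). All were the highest values of their groups. The other 3 were Stat2 (2.52) and Gbp2 (-1.49) on IRLWT ZT8 replicate 3, both the lowest of their group, and Oas2 (2.32) on IRLKO ZT16 replicate 2, the highest of its group.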

How the results depend on the processing

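Counts of the 40 genes that passed are given in the order ZT8, ZT12 and ZT16 for genotype, and ZT8 to ZT12, ZT12 to ZT16 and ZT8 to ZT16 for time. Leaving out 1 array gave 5 to 18, 11 to 19, 8 to 18 and, for the mean genotype difference, 20 to 25. It gave 2 to 2, 0 to 0 and 5 to 10 for time in IRLWT, 1 to 11, 0 to 3 and 3 to 8 in IRLKO, and 0 to 1 for the interaction F test. Without both high arrays, an alternative chosen after the data had been seen, the counts were 22, 23 and 24, then 4, 4 and 17 in IRLWT, 6, 7 and 8 in IRLKO, and 7 for the F test. Array weights, which weigh down arrays that spread, gave 16, 20 and 20 for genotype, 1 from ZT12 to ZT16 and 11 from ZT8 to ZT16 in IRLWT, 4 from ZT8 to ZT12 in IRLKO, and 1 for the F test. Restricting the fit to the samples of each comparison gave 4 at ZT8 and 20 at ZT16, then 4, 2 and 17 in IRLWT and 1, 0 and 2 in IRLKO. Normexp background correction gave 7 at ZT16, as did the authors' deposited table. The mean of a gene's probes gave 1 from ZT8 to ZT12 and 4 from ZT8 to ZT16 in IRLWT, and 1 from ZT8 to ZT12 in IRLKO. Slide as a fixed block gave 4 from ZT8 to ZT16 in IRLWT and 0 from ZT12 to ZT16 in IRLKO, and no filter on dim probes also gave 0 there. The cause of these shifts was not tested. The mean genotype count stayed within 1.5 times its value under every alternative run. Same-numbered samples correlated from -0.16 to 0.146 and were not paired. With the replicate number as a block the counts were 9, 12 and 10 for genotype, 21 in the mean, 2, 0 and 7 in IRLWT, 2, 1 and 3 in IRLKO and 0 for the F test. Signs turned within single wash batches: Parp9 at ZT8 was 0.0039 in batch 1, and at ZT12 in batch 3, where the only knockout array was the high one, Oasl1 was 0.27, Ifih1 0.12, Dhx58 0.50, Ifi27 0.25 and Parp9 0.058. Signal near background limits Oas1g and, of the interferon ligands measured, Ifng and Ifna2.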
